A study of Mus musculus with 7 samples.

Results

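Ribosome biogenesis factor genes were followed through meiotic maturation of the mouse oocyte, with and without BYBX, a small-molecule ligand of RNA G-quadruplexes (rG4s). The genes were chosen by name. A member was any entry whose symbol began with Nop, Nol, Utp or Rrp followed by a digit, or was Gar1, Nhp2, Dkc1, Fbl, Imp3, Imp4, Bop1, Pes1, Ncl or Nolc1. This rule found 47 of the 25912 entries listed, and 43 of these were among the 9202 entries tested, which had a mean of the 3 group means of at least 1 FPKM (a transcript level corrected for length and sequencing yield). By role, 3 members are core proteins of box C/D snoRNPs, 4 of box H/ACA snoRNPs, 2 are nucleolar scaffold proteins, 23 are small subunit factors and 12 are large subunit factors. The remaining 3, Nol3, Nol4 and Nol4l, carry the name without a known task in ribosome assembly.

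Poly(A) RNA was profiled by Smart-seq2 in 7 libraries of 10 oocytes each, from 4-week-old C57BL/6 females killed 44 h after PMSG, a gonadotropin that drives follicle growth. The groups were fully grown germinal vesicle (GV) oocytes (2 libraries, genotype label Control, treatment label NO), metaphase II (MII) oocytes cultured with the solvent DMSO (3 libraries, genotype label Control) and MII oocytes cultured with BYBX (2 libraries, genotype label Treat). MII oocytes of the study were cultured for 16 h, and the methods state that control GV oocytes also received DMSO, whereas the labels list no treatment for them. Neither the labels nor the methods of these libraries give the BYBX dose, and where the libraries are set against ribosome profiling the treatment is described as 1 μM BYBX. It is not stated whether treated oocytes were picked by polar body, so a direct effect of the ligand and incomplete maturation cannot be told apart. Nothing says that the libraries came from separate animals, so p-values measure only the spread between these libraries.

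Ribosomal RNA is transcribed by RNA polymerase I in the nucleolus, where it is modified, folded and cut by a large set of factors. Box C/D snoRNPs guide ribose methylation and box H/ACA snoRNPs guide pseudouridylation of the RNA, the UTP proteins build the processome that matures the small subunit, and other factors assemble the large subunit. Growing oocytes make and store ribosomes, the nucleolus disassembles when the germinal vesicle breaks down, and transcription stays silent through maturation while maternal mRNAs are deadenylated and degraded.

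The libraries carried oocyte RNA. The 11 oocyte markers summed to between 2663 and 14075 FPKM per library, and none of them was under 1 FPKM throughout. Of 12 granulosa and cumulus markers, 8 were under 1 FPKM in every library, including Foxl2, Amh and Fshr. Above that in GV were Inha (5.48 and 1.94 FPKM), Cyp19a1 (4.49 and 2.19), Nr5a2 (4.43 and 3.24) and Kitl (1.12 and 1.03). The summed level of all 12 was 17.5 and 9.80 FPKM in GV, 2.34 to 2.64 in MII with DMSO and 4.77 and 4.22 in MII with BYBX. That sum moved in the same order as most members, and its part in the results was not tested. All 4 theca and stroma markers and 8 of 10 blood and endothelium entries were under 1 FPKM in every library, and the sum of the latter, mostly Pecam1, was 4.60 to 10.4 FPKM. Library totals ran from 109732 FPKM in MII with DMSO to 489569 FPKM in GV, as the authors had scaled the values to the ERCC spike-in, and depth is unknown because no counts are given. Levels were compared on this scale, on which less RNA per oocyte and a shorter poly(A) tail cannot be told apart.

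BYBX binds rG4s, so the members' transcripts were searched for the letters that can fold into one. A motif needed 4 G runs, each of 3 or more, separated by 1 to 7 bases, on the sense strand of the longest protein-coding transcript of each gene. It was found in 4 of the 43 members tested (9.30%), against 18.6% of the 8874 tested entries that matched a transcript. With up to 12 bases between runs the shares were 20.9% and 33.3%. The 4 sites in tested members are shown with the G runs in capitals, since their letters could form the ligand's known target in transcripts whose change was tested. Among the members not tested, Nol3 and Utp23 also held a motif.
Ncl, 3′ UTR: GGGtttattGGGGaGGGaaGGG
Nol12, 3′ UTR: GGGGGGtgtGGGGGaGGGtatGGGGG
Nol6, 5′ UTR: GGGtGGGGcctGGGGcaaGGG
Rrp1, coding sequence: GGGGctaGGGcaaaGGGGGctGGGG

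On GRCm38, with the GENCODE vM21 transcripts, these sites lie at chr1:86347669-86347690 (minus strand, Ncl), chr15:78941824-78941849 (plus strand, Nol12), chr4:41124307-41124327 (minus strand, Nol6) and chr10:78400841-78400865 (minus strand, Rrp1). Each lies within 1 exon. A match is a description of letters and not evidence of a folded structure. All 4 of these members fell from GV to MII with DMSO and were higher under BYBX than under DMSO, as were most members without a match, although the values of Nol6 turned to 0.36 and -0.13 after median centring and did not pass. With BYBX the difference from DMSO was 2.15 for Nol12, 2.16 for Rrp1, 1.75 for Ncl and 1.15 for Nol6, in log2(FPKM + 1), the scale of every fold change below, which understates the change of low genes.

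In GV oocytes 31 of the 47 members were at 10 FPKM or more. The highest levels per length were those of Utp4, a WD-repeat subunit of the UtpA complex that opens small subunit assembly, Imp4, a U3 snoRNP partner of the same particle, and the scaffold protein nucleolin (Ncl), which made up 15.5%, 10.4% and 5.29% of the summed member FPKM. In MII with DMSO only 6 members were at 10 FPKM or more and 21 were under 1 FPKM. The order also changed, with Dkc1 (15.7%), Nol10 (13.1%) and Nop58 (12.5%) leading the sum. With BYBX, 17 members were at 10 FPKM or more, 5 were under 1 FPKM, and Utp4 (10.97%) and Imp4 (7.35%) led again. The median member stood at 16.7 FPKM in GV, 1.11 in MII with DMSO and 5.73 in MII with BYBX.

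The summed level of the 47 members was 1551 and 1228 FPKM in GV, 188, 214 and 209 in MII with DMSO, and 570 and 482 in MII with BYBX. The groups did not overlap, and the means were 1389 ± 228 (SD, n = 2), 204 ± 14.0 (SD, n = 3) and 526 ± 62.3 (SD, n = 2). The library totals followed the same order. As a share of the library total, the members made up 0.311% in GV, 0.169% in MII with DMSO and 0.235% in MII with BYBX, so the order held while the distances shrank. By group mean, 41 of the 43 members tested were highest in GV, intermediate with BYBX and lowest with DMSO, an order shared by 91.7% of all entries tested. The exceptions were Gar1 and Nol4.

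The first comparison asked how the members changed from GV to MII in control culture. In limma with Benjamini-Hochberg adjustment over all entries tested, 40 of 43 members were lower in MII with DMSO and 0 were higher. The member counts were the same at an unadjusted p under 0.05. At the adjusted threshold 88.3% of all 9202 entries were lower and 0.272% higher. The members' share was thus near that of all entries, while their median change of -2.52 lay below the median of all entries, -1.83, and 31 of 43 members lay below it. All 3 GV-to-MII exceptions, Gar1, Nol10 and Nol4, had values below 0 that did not pass (adjusted p = 0.063, 0.076 and 0.24). Every GV library was above every DMSO library for 42 members, against 92.5% of all entries, and Nol4 was the one with overlap. Relative to GV, the tested members retained a median of 8.95% of their level, from 0.149% for Nol12 to 74.9% for Nol4, and 22 of them retained under 10%. The median over the 9194 entries with a GV level was 16.3%, and 3608 of these entries retained under 10%. The level filter can be met through the GV level alone, which favours falls from GV among the members and entries tested. With no filter the median change of the 47 members was -2.41.

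The roles differed in the size of the fall. The 11 tested large subunit factors had a median change of -3.46 and all passed, the 2 scaffold proteins -2.997, the 3 box C/D proteins -2.52 and the 21 tested small subunit factors -2.31, with 20 lower. The 4 box H/ACA proteins had the smallest median of the ribosomal roles, -1.36, with 3 lower. Their median was above 0 on the other scales (0.40 at the same total and 0.94 after median centring). The medians of all entries were -0.56 and 0.47 on those scales. The differences between roles were not tested.

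The second comparison asked how BYBX changed MII levels. In limma, 35 of 43 members were higher with BYBX than with DMSO and 0 were lower, also at an unadjusted p under 0.05. At the adjusted threshold 65.2% of all entries were higher and 0.0326% lower. The median change of the members was 1.33, above the 0.84 of all entries, and 31 of 43 members lay above that value. The 8 that did not pass were Nol4, Dkc1, Nol10, Nop58, Utp20, Nol8, Utp15 and Gar1. Both BYBX libraries were above all DMSO libraries for 38 members, against 79% of all entries. Large subunit factors had a median change of 1.70 with 10 of 11 higher, small subunit factors 1.26 with 18 of 21, box C/D proteins 1.33 with 2 of 3, and box H/ACA proteins 0.82 with 2 of 4. After median centring the medians were below 0 for box H/ACA proteins (-0.46) and small subunit factors (-0.014), and at the same total for box H/ACA proteins (-0.0078). The medians of all entries were -0.44 after median centring and 0.34 at the same total.

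**Figure D1:**
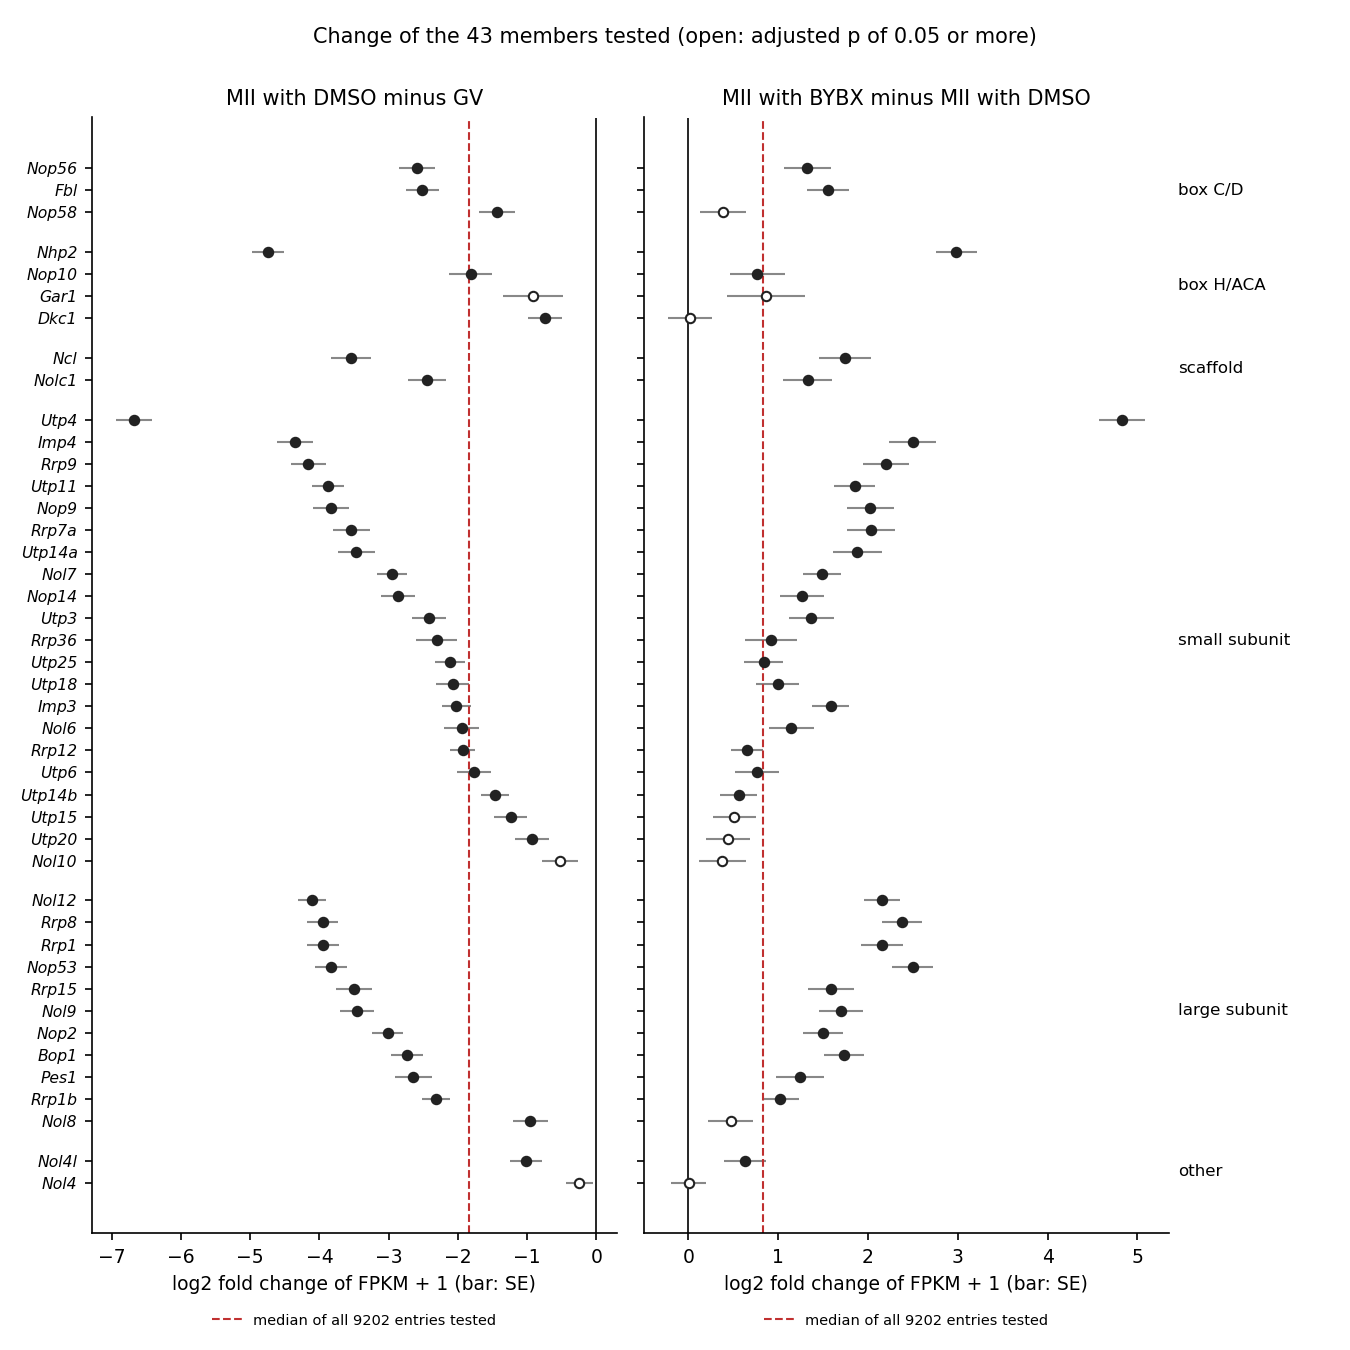
Log2 fold change of FPKM + 1 (horizontal axes) of the 43 members tested, by role, in MII with DMSO minus GV (left) and in MII with BYBX minus MII with DMSO (right). Points are limma estimates from 2 GV, 3 DMSO and 2 BYBX libraries, bars are 1 SE, open points did not pass, and dashed lines mark the medians of all entries, -1.83 and 0.84. All points lie below 0 on the left and above 0 on the right, and both comparisons use the same DMSO libraries.

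The third comparison set BYBX-treated MII oocytes against GV. In limma, 36 of 43 members were lower with BYBX and 0 were higher, also at an unadjusted p under 0.05. At the adjusted threshold 69.2% of all entries were lower and 0.315% higher. The median change was -1.27 for the members and -0.99 for all entries. Both GV libraries were above both BYBX libraries for 41 members, against 82.3% of all entries. The members that did not pass were Imp3, Nol4l, Nol8, Utp20, Gar1, Nol10 and Nol4. Relative to GV, the tested members stood at a median of 33.7% with BYBX, against 43.4% for all entries. Of the 43 members none was under 10% and 10 were at 50% or more, against 32 and 3746 of the 9194 entries with a GV level.

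**Figure D2:**
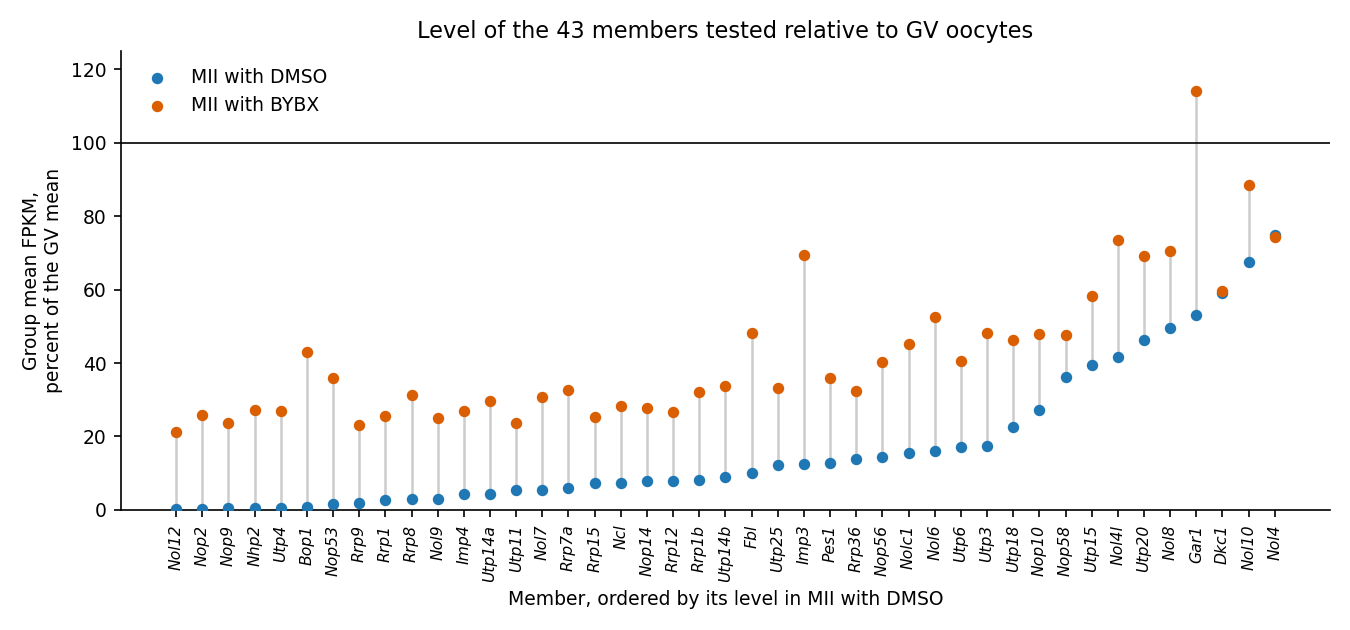
Group mean FPKM of the 43 members tested as a percent of their GV mean (vertical axis), for MII with DMSO (blue, 3 libraries) and MII with BYBX (orange, 2 libraries), ordered by the DMSO value. The DMSO values run from 0.149% to 74.9% and the BYBX values from 21.3% to 114%, the last being Gar1, whose BYBX libraries lie far apart.

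The box C/D core proteins were the first role examined by library. Fibrillarin (Fbl), the methyltransferase of the particle, was at 12.1 and 10.1 FPKM in GV, 1.16, 1.16 and 1.01 in MII with DMSO, and 6.70 and 4.01 in MII with BYBX. The 3 groups did not overlap. Its change was -2.52 (SE 0.24) from GV to MII with DMSO and 1.55 (SE 0.24) with BYBX over DMSO (limma adjusted p = 2.2e-07 and 7.3e-05). After median centring these values of Fbl were -0.21 and 0.28, and neither passed. Nop56, which bridges fibrillarin and the guide RNA, was at 42.5 and 32.7 FPKM in GV, 4.25, 6.12 and 5.96 with DMSO, and 17.3 and 12.98 with BYBX. It was likewise separate in all groups, with changes of -2.59 and 1.33 that were -0.28 and 0.047 after median centring and then did not pass. Nop58, the paralogous scaffold of the same particle, was at 74.7 and 65.6 FPKM in GV, 23.7, 30.1 and 22.5 with DMSO, and 37.8 and 29.2 with BYBX. Here one BYBX library lay among the DMSO libraries. Nop58 changed by -1.43 from GV to MII with DMSO on the deposited scale but by 0.41 and 0.87 when the libraries were set to the same total or centred on their medians, and its BYBX difference of 0.38 did not pass (adjusted p = 0.20).

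The box H/ACA proteins differed among themselves, with values of -4.74 to -0.74 for MII with DMSO minus GV, of which that of Gar1 did not pass. Dyskerin (Dkc1), the pseudouridine synthase, was at 59.7 and 48.7 FPKM in GV, 29.5, 34.5 and 32.1 with DMSO, and 33.2 and 31.5 with BYBX. Both MII groups lay below GV and overlapped each other. Dkc1 changed by -0.74 from GV to MII with DMSO (SE 0.24, limma adjusted p = 0.011). It changed by 1.11 at the same total and by 1.57 after median centring, and passed as higher there (limma adjusted p = 0.00031 and 3.1e-05). Without the first GV library its value was -0.59 and did not pass. With BYBX it differed from DMSO by 0.017 (SE 0.24, limma adjusted p = 0.95). On the other scales it differed by -0.86 and -1.26 and passed as lower (limma adjusted p = 0.0027 and 0.00045). On the deposited scale the sign also turned without the first DMSO library (-0.039) and without the first BYBX library (-0.019).

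Nhp2, a small RNA-binding protein of the same particle, was at 25.9 and 32.4 FPKM in GV, 0.0379, 0.194 and 0.144 with DMSO, and 9.07 and 6.84 with BYBX. All groups were separate, and the DMSO level was 0.430% of GV. Nhp2 changed by -4.74 (SE 0.23) from GV to MII with DMSO and by 2.98 (SE 0.23) with BYBX over DMSO (limma adjusted p = 5.4e-10 and 1.7e-07), in the same directions on all 3 scales. Nop10, the smallest core protein, was at 29.3 and 34.7 FPKM in GV, 5.39, 9.69 and 10.9 with DMSO, and 18.9 and 11.7 with BYBX. Its groups did not overlap, but the lower BYBX library was close to the highest DMSO library. Nop10 changed by -1.82 from GV to MII with DMSO, which was 0.49 after median centring. Its BYBX difference of 0.77 passed narrowly (limma adjusted p = 0.042), was below 0 on the other scales (-0.048 and -0.51), and did not pass without either GV library (0.77), the first DMSO library (0.50) or the first BYBX library (0.45).

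Gar1, the remaining core protein, was at 17.3 and 23.2 FPKM in GV, 6.03, 12.9 and 13.3 with DMSO, and 35.9 and 10.2 with BYBX. One BYBX library was above all other libraries and the second was within the DMSO range. On the deposited scale Gar1 passed in none of the 3 comparisons (changes of -0.91, 0.87 and -0.046). There it passed for DMSO against GV without DMSO library 2 (-1.07) or 3 (-1.09). It also passed, at -0.91, with only the 2 groups compared or with the 5 FPKM filter. The BYBX against DMSO value of Gar1 was 1.72 without the second BYBX library and 0.0074 without the first. Its change from GV to MII with DMSO was above 0 on the other scales, and passed after median centring (1.39, limma adjusted p = 0.019).

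**Figure D3:**
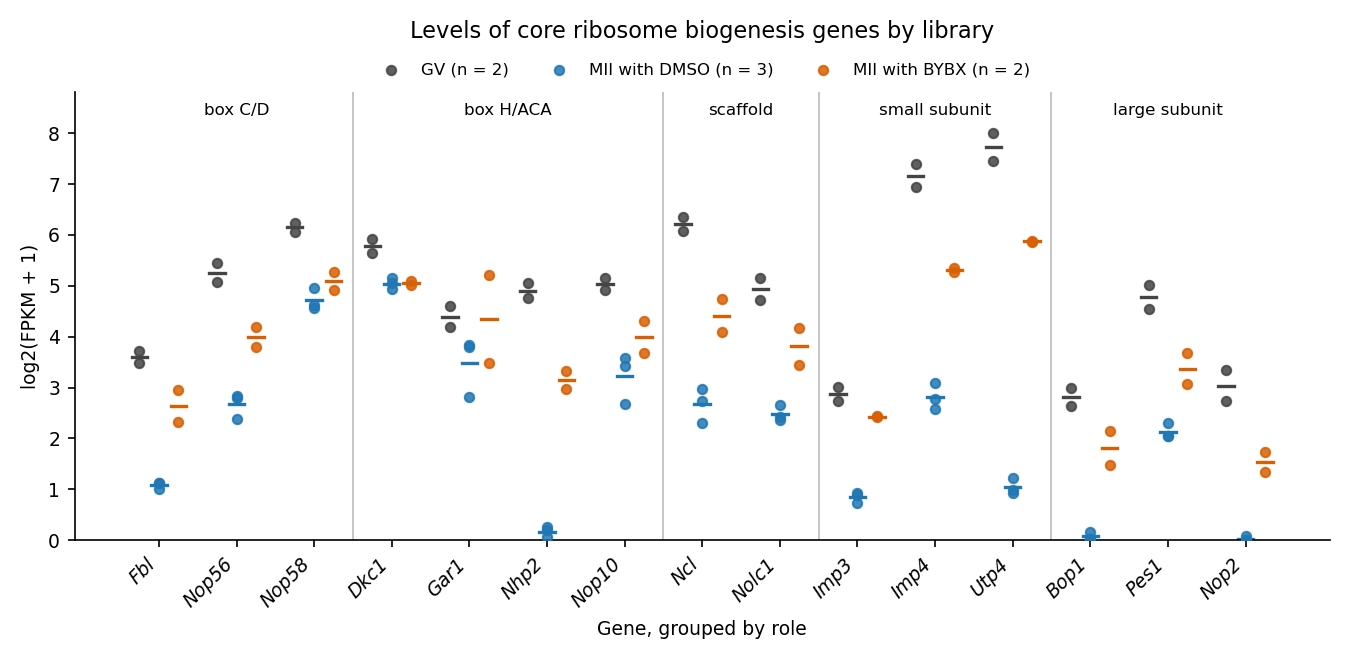
Levels of 15 members in log2(FPKM + 1) (vertical axis) by library, for GV (grey), MII with DMSO (blue) and MII with BYBX (orange). Points are libraries and lines are group means on this scale. Nhp2, Bop1 and Nop2 are near 0 in all 3 DMSO libraries, while Dkc1 and Nop58 stay high, and the BYBX points of Gar1 lie far apart.

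Both nucleolar scaffold proteins changed in both comparisons. Nucleolin (Ncl), which binds nascent ribosomal RNA, was at 80.5 and 66.5 FPKM in GV, 3.91, 6.85 and 5.67 with DMSO, and 25.6 and 16.1 with BYBX. The groups did not overlap. Ncl changed by -3.54 (SE 0.29) from GV to MII with DMSO and by 1.75 (SE 0.29) with BYBX over DMSO (limma adjusted p = 4.6e-08 and 0.00013). The first change passed on all 3 scales, and the second was 0.47 after median centring and did not pass. Nolc1, a chaperone of snoRNPs also called Nopp140, was at 34.4 and 25.2 FPKM in GV, 4.14, 5.27 and 4.37 with DMSO, and 17.0 and 9.93 with BYBX. It was separate in all groups, with changes of -2.45 and 1.33 on the deposited scale. After median centring they were -0.15 and 0.052, and neither passed, nor did the second at the same total (0.56). Against GV, the difference of Nolc1 with BYBX was -1.12 and did not pass without the first GV library (-0.90) or the second BYBX library (-0.76).

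Among small subunit factors, Utp4 had the largest changes of all tested members in both comparisons that involve MII with DMSO. It was at 257 and 174 FPKM in GV, 0.981, 1.34 and 0.915 with DMSO, and 57.4 and 58.0 with BYBX. The most abundant member of GV oocytes was thus at 0.501% of its GV level with DMSO and at 26.8% with BYBX, with no overlap. Utp4 changed by -6.68 (SE 0.26) from GV to MII with DMSO and by 4.83 (SE 0.26) with BYBX over DMSO (limma adjusted p = 2.5e-10 and 2.4e-08), in the same directions on all 3 scales. Imp4 was at 166 and 123 FPKM in GV, 7.49, 4.98 and 5.81 with DMSO, and 37.6 and 39.8 with BYBX. Its changes of -4.36 and 2.50 also kept their direction on all scales. Imp3, its partner in the U3 particle, was at 7.01 and 5.63 FPKM in GV, 0.843, 0.657 and 0.891 with DMSO, and 4.33 and 4.44 with BYBX. Imp3 fell by 2.02 from GV to MII with DMSO, a value of 0.28 after median centring. It came closer to GV with BYBX than its partner, at 69.4% against 26.8% of the GV level, and its BYBX difference from GV was -0.44 (adjusted p = 0.098), -0.57 and past the threshold without the second GV library, and above 0 on the other scales (0.38 and 0.59).

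Utp11, a processome factor, was at 72.7 and 71.2 FPKM in GV, 3.82, 3.92 and 4.16 with DMSO, and 17.95 and 16.02 with BYBX. It had the largest difference between BYBX and GV, -2.02 (SE 0.25, limma adjusted p = 6.7e-05), with no overlap and the same direction on all 3 scales. Rrp9, a protein bound to U3 snoRNA, was at 27.7 and 24.4 FPKM in GV, 0.730, 0.201 and 0.647 with DMSO, and 4.77 and 7.33 with BYBX. Its difference between BYBX and GV was -1.96, the next largest. At the same total this difference was -1.02 and did not pass (limma adjusted p = 0.064). Nol10 formed the other end of the role, at 48.2 and 31.0 FPKM in GV, 29.0, 23.9 and 27.2 with DMSO, and 36.9 and 33.0 with BYBX. Its GV and BYBX libraries overlapped and its DMSO libraries lay just below both. Nol10 passed in none of the comparisons on the deposited scale (-0.52, 0.38 and -0.14). Without the second GV library its DMSO against GV value was -0.83. It was higher in MII with DMSO than in GV on the other scales (1.31 and 1.78), where it passed (limma adjusted p = 0.0003 and 3.1e-05).

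Large subunit factors held several of the lowest MII levels. Nop2, an RNA methyltransferase of the large subunit rRNA, was at 9.21 and 5.62 FPKM in GV, at 0.0597 and listed at 0 in the other two libraries with DMSO, and at 1.51 and 2.31 with BYBX. Its groups did not overlap, and its changes were -3.01 and 1.501, of which the second was 0.22 after median centring and did not pass. Nol12, an RNA-binding protein linked to pre-rRNA cleavage, was at 18.2 and 15.3 FPKM in GV, 0.0570, 0 and 0.0176 with DMSO, and 3.52 and 3.59 with BYBX. Its difference between BYBX and GV was -1.95 (SE 0.22), the same in direction on all 3 scales. A listed 0 can be a failed estimate in these files.

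Bop1 and Pes1 are partners in the PeBoW complex, which processes the precursor of the large subunit rRNA. Bop1 was at 6.90 and 5.23 FPKM in GV, 0.0192, 0.0218 and 0.125 with DMSO, and 1.78 and 3.42 with BYBX. Pes1 was at 31.5 and 22.2 FPKM in GV, 3.15, 3.90 and 3.14 with DMSO, and 11.8 and 7.36 with BYBX. Both were separate in all groups. Bop1 changed by -2.73 and 1.73 on the deposited scale, and by -0.43 and 0.46 after median centring, where neither passed. Pes1 changed by -2.65 and 1.24, and after median centring by -0.34 and -0.0365, where neither passed, nor did the second at the same total (0.51). Nol8 was the large subunit factor that changed least, by -0.95 (limma adjusted p = 0.0032), and this was above 0 on the other scales.

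Of the names without a ribosomal role, Nol4 was at 1.72 and 1.34 FPKM in GV, 1.54, 0.910 and 0.989 with DMSO, and 1.10 and 1.17 with BYBX. Its GV and DMSO libraries overlapped, and its BYBX libraries lay within the DMSO range and below GV. On the deposited scale Nol4 passed in none of the comparisons. After median centring it passed in all 3, at 2.06, -1.27 and 0.79 (limma adjusted p = 1.3e-05, 0.00071 and 0.025). At the same total it passed only for DMSO against GV (0.84, limma adjusted p = 0.0075). Nol4l passed for DMSO against GV (-1.02) but was above 0 on the other scales. Nol3, an inhibitor of apoptosis, was at most 0.353 FPKM and was not tested, and the other members not tested were Nol11, Nop16 and Utp23, all under 2 FPKM in every library.

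Proteins of one particle act in fixed proportions, so their transcripts were also set against each other within libraries, where the scale of a library cancels. The pairs were chosen after their values were seen and the ratios have no test. The Nhp2 to Dkc1 ratio was 0.434 and 0.665 in GV, 0.00128, 0.00563 and 0.00448 with DMSO, and 0.273 and 0.217 with BYBX. The Utp4 to Utp15 ratio, for partners in UtpA, was 12.2 and 10.3 in GV, 0.116, 0.179 and 0.142 with DMSO, and 5.10 and 5.37 with BYBX. In both pairs the 3 groups were separate and BYBX lay between the others.

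The Fbl to Nop58 ratio was 0.163 and 0.155 in GV, 0.0490, 0.0387 and 0.0451 with DMSO, and 0.177 and 0.137 with BYBX, so that GV and BYBX overlapped and both lay above DMSO. The Imp3 to Imp4 ratio was 0.0422 and 0.0460 in GV, 0.113, 0.132 and 0.153 with DMSO, and 0.115 and 0.112 with BYBX. Here BYBX and DMSO lay close together, above GV. The Gar1 to Dkc1 ratio overlapped between all groups. The Bop1 to Pes1 ratio was at most 0.0397 with DMSO and at least 0.151 in every other library.

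**Figure D4:**
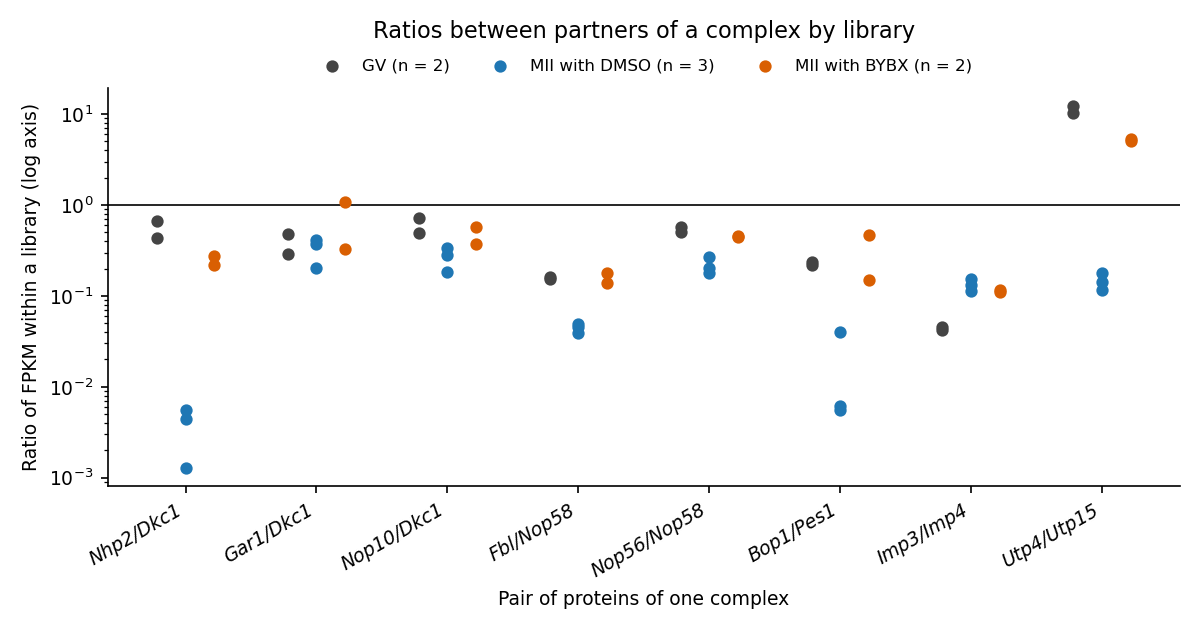
Ratio of FPKM between partners of one complex within a library (vertical log axis) for 8 pairs, with 1 point per library of GV (grey), MII with DMSO (blue) and MII with BYBX (orange). The Nhp2/Dkc1 and Utp4/Utp15 ratios are lowest with DMSO, at no more than 0.00563 and 0.179, and highest in GV, while the Imp3/Imp4 ratio is lowest in GV.

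The number of members called turned on how the libraries were scaled. The median change of members with BYBX over DMSO was 1.33 on the deposited scale, against 0.84 for all entries. After median centring it was 0.052, against -0.44 for all entries. On that scale 20 of 43 members lay below 0, as did 6306 of the 9202 entries. With every library set to the same total, MII with DMSO minus GV gave 31 members lower and 5 higher (49.5% and 23.3% of all entries), BYBX minus DMSO gave 25 higher and 1 lower (39.9% and 8.22%), and BYBX minus GV gave 8 lower and 1 higher (13.3% and 5.3%). After median centring, the counts were 18 lower and 12 higher (26.7% and 48.8%), 12 higher and 12 lower (18.4% and 43.9%), and 10 lower and 3 higher (13.6% and 15.2%). The 18 members called lower from GV to MII on all 3 scales, where 26.7% of all entries were so called, included Utp4, Nhp2, Imp4, Ncl and 7 of the 11 tested large subunit factors, Nop2 among them. The 12 called higher with BYBX than with DMSO on all 3 scales (18.4% of all entries) included Utp4, Nhp2, Imp4 and Nop53, a factor that recruits the exosome. The 8 called lower with BYBX than in GV on all 3 scales (11.6% of all entries) included Utp4, Imp4, Ncl, Utp11 and Nol12. The counts of 18 and 12 and their shares of all entries equal those after median centring, so the other scales set no further condition there.

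**Figure D5:**
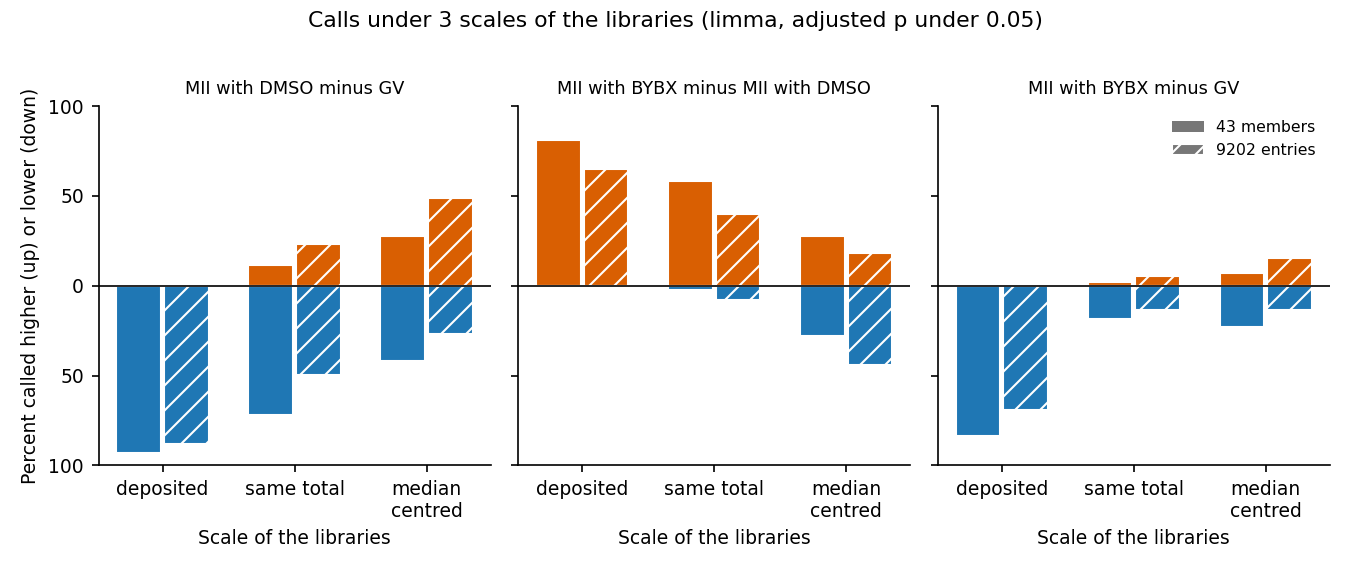
Percent of entries called higher (orange, upward) or lower (blue, downward) by limma under 3 scales of the libraries, for the 43 members (plain bars) and all 9202 entries tested (hatched bars). On the deposited scale nearly all calls go one way in each comparison (40 lower, 35 higher and 36 lower members), and after median centring 18 members are lower and 12 higher in MII with DMSO than in GV.

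The members were finally set beside other genes of the pathway. Of 78 further ribosome biogenesis genes, 74 were tested, of which 69 fell from GV to MII with DMSO, 62 were higher under BYBX than under DMSO and 65 were lower under BYBX than at the GV stage, with medians of -3.01, 1.39 and -1.45. The shares of all entries called the same way were 88.3%, 65.2% and 69.2%. The largest falls were those of Fcf1 (-6.67), the nuclease-fold protein of the processome, and Emg1 (-6.64), an rRNA methyltransferase, and the smallest changes were those of Npm3 (-0.015) and Nip7 (-0.30), which did not pass. Npm1, the abundant nucleolar chaperone nucleophosmin, was at 296 and 281 FPKM in GV, 100.1, 150.1 and 165 with DMSO, and 239 and 185 with BYBX. It changed by -1.09 from GV to MII with DMSO (limma adjusted p = 0.0019), and its BYBX difference of 0.63 did not pass (adjusted p = 0.055). All 14 genes of RNA polymerase I and its factors were tested, with 14 lower, 13 higher and 13 lower in the same order of comparisons and medians of -3.42, 1.77 and -1.42. After median centring, 40 of the 74 genes were lower and 20 higher in MII with DMSO than in GV, and 8 of the 14 were lower and 4 higher. On that scale 26.7% of all entries were lower and 48.8% higher. At the same total 54 of the 74 were lower and 8 higher, and 11 of the 14 were lower and 0 higher, against 49.5% and 23.3% of all entries.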

How the data were processed

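Deposited FPKM values of 7 Smart-seq2 libraries were used, as 1 table per library. The authors trimmed reads with Trim Galore 0.6.7, aligned them to mm10 with HISAT2 2.2.1, computed FPKM with Cufflinks 2.2.1 on UCSC gene models, and scaled these values to ERCC spike-ins and, across batches, to each batch's GV oocytes. The scaling factors are not given in the sources used here. Cufflinks values keep no whole reads, so depth is unknown and no counting interval can be given, and precision is that of 2 or 3 libraries per group. Whether reads were counted by strand is not given. Exons of 17 members overlap a gene on the opposite strand, among them Bop1, Dkc1, Imp4, Nhp2, Nop56, Pes1 and Rrp9. Those of Utp14b overlap Acsl3 on the same strand. The values of all these members, and ratios that use them, are therefore uncertain.

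Groups were taken from the sample labels. Of 25912 entries, 4 with a missing value were dropped. log2(FPKM + 1) was fitted with limma 3.58.1 in R 4.3.3 (lmFit, contrasts.fit, eBayes, trended) on 9202 entries whose group means averaged 1 FPKM or more, with 3 group means, 7 libraries and 4 residual degrees of freedom. An entry was called when its p, adjusted by Benjamini-Hochberg over all entries, was under 0.05. The step was tested on simulated data. No set test was run. Transcripts were those of GENCODE vM21, and all 47 members matched. Python 3.11.15 with pandas 2.3.3, numpy 2.4.6 and matplotlib 3.10.9 was used elsewhere.

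Named members are the snoRNP core proteins, Ncl, Nolc1, Imp3, Imp4, Bop1, Pes1, Nop2, the 3 largest and 3 smallest changes of each comparison and exceptions to small counts, plus Npm1 and the 2 largest and 2 smallest changes of the other pathway genes. Members and lists were chosen with earlier results of these data known. The alternative settings were 0.1 as pseudocount, a 5 FPKM filter or no filter, libraries at the same total FPKM or median centred, only the 2 groups compared, a replicate block, no trend, no repeated names, and leaving out each library.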

Additional observations from a re-analysis of the deposited data

How the results depend on the processing

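The median change of members was -3.21, 1.73 and -1.49 (MII with DMSO minus GV, BYBX minus DMSO, BYBX minus GV) with a pseudocount of 0.1, and -2.91, 1.52 and -1.43 for the 32 members left by a filter at 5 FPKM. At the same total FPKM it was -0.98, 0.66 and -0.46, and 5 members were higher in the first comparison, 1 lower in the second, and 8 lower with 1 higher in the last. Median centred it was -0.21, 0.052 and -0.25, against 0.47, -0.44 and 0.037 for all entries. The members then split into 18 lower against 12 higher, 12 against 12, and 10 lower against 3 higher. Leaving out 1 library gave medians of -2.73 to -2.40, 1.17 to 1.52 and -1.44 to -1.13. As a percent of the library total, the summed level was 0.545, 1.39 and 0.756 times that of the other group, in the same order.

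Among the 43 members tested, 9 turned sign at the same total and 17 after median centring in MII with DMSO minus GV, 9 and 20 in BYBX minus DMSO, and 10 and 14 in BYBX minus GV. Of all 9202 entries, 9040, 5722 and 3422 lay below 0 in MII with DMSO minus GV (deposited, same total, median centred). The numbers were 298, 3375 and 6306 in BYBX minus DMSO, and 8739, 5498 and 4393 in BYBX minus GV. With their sign kept, a further 3 and 8, 8 and 11, and 25 and 19 members lost their call. Lost calls were not counted over all entries. The values of the members that turned sign among the 20 named are as follows. MII with DMSO minus GV, at the same total and median centred, was 1.11 and 1.57 for Dkc1, 0.85 and 1.39 for Gar1, 1.31 and 1.78 for Nol10, 0.84 and 2.06 for Nol4, and 0.41 and 0.87 for Nop58, and median centred 0.28 for Imp3 and 0.49 for Nop10. BYBX minus DMSO was -0.86 and -1.26 for Dkc1, -0.49 and -0.90 for Nol10, -0.55 and -1.27 for Nol4, -0.048 and -0.51 for Nop10, -0.49 and -0.90 for Nop58, and median centred -0.41 for Gar1 and -0.0365 for Pes1. BYBX minus GV was 0.25 and 0.31 for Dkc1, 0.88 and 0.98 for Gar1, 0.38 and 0.59 for Imp3, 0.82 and 0.88 for Nol10, 0.29 and 0.79 for Nol4, and median centred 0.026 for Bop1 and 0.063 for Fbl. Without 1 library, BYBX minus DMSO ranged from -0.039 to 0.070 for Dkc1 and from -0.073 to 0.13 for Nol4, and BYBX minus GV from -0.90 to 0.81 for Gar1 and from -0.45 to 0.17 for Nol10. The cause was not tested. Over all alternatives, 51 other values of the 20 named members no longer passed and 9 came to pass.

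BYBX minus GV no longer passed for Dkc1 without the first GV library (-0.58) or either BYBX library (-0.76 and -0.68), for Fbl without the second BYBX library (-0.65), and for Nop10 without either GV library (-1.16 and -0.93) or the second BYBX library (-0.72).

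It is not known whether the replicate numbers pair the samples, and so few libraries cannot decide it. The correlations of same-numbered deviations were 0.487 and 0.282 between GV and DMSO but -0.330 between GV and BYBX and -0.601 and -0.348 between DMSO and BYBX. With 2 libraries each in GV and BYBX, their value is the same for both numbers by construction. With the replicate number as a block, 40 members were lower, 33 higher and 34 lower in the 3 comparisons. The shares of all entries so called were not counted with the block, and without it were 88.3%, 65.2% and 69.2%. With the block, the BYBX minus DMSO value of Nol4 was -0.044, and Dkc1 no longer passed for BYBX minus GV (-0.72).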

Other observations

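In the annotation 14 snoRNA genes lie within the span of 5 members on the same strand, among them 5 in Nop56 and 4 in Nop58. The spans of these genes thus hold both a snoRNP protein and snoRNAs, and their place in introns was not checked. The files list 8 of these snoRNAs (Snora75, Snord82 and Gm24148 of Ncl, Snord11 and Snord70 of Nop58, Snord57 and Snord110 of Nop56, and Snord23 of Nop53), and each is listed at 0 in all 7 libraries. Libraries were primed with oligo-dT, and nothing about the abundance of these RNAs follows from these zeros.

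Across the 43 members tested, Spearman's rho between the change from GV to MII with DMSO and the log2 GV level was -0.36, with transcript length 0.28 and with GC content -0.24. These are descriptions over members measured in the same libraries, and the change shares the GV libraries with the GV level.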
